A study of Mus musculus with 20 samples.

Results

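This report compares livers of mice without the desaturase gene Scd1 (Scd1-/-) with livers of wild-type mice (Scd1+/+), all fed a very-low-fat diet, across every gene on an expression array. The members are the 10 arrays, of 20 in the series, whose titles give the very-low-fat diet (TD03045, a Harlan Teklad formula): 5 Scd1-/- and 5 Scd1+/+ livers, each liver from 1 animal. The other 10 arrays hold 5 Scd1-/- and 5 Scd1+/+ livers of mice on chow. They entered the same model and are used only to ask whether a genotype difference also differed between diets. The groups differ by genotype alone as far as the labels go, and all 10 mice ate the same diet. Whether Scd1 is missing in every tissue or in liver only, the strain, sex and age of the mice, and the timing and length of feeding are details the sources used here do not give. The series' text calls the diet VLF-HC and gives as its aim the search for expression changes found in the knockout on that diet.

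Stearoyl-CoA desaturase 1, the product of Scd1, puts the first double bond into saturated fatty acids, and oleic and palmitoleic acid are its main products. A diet with almost no fat supplies little oleic acid, so the liver has to make its own from sugar, and the enzyme sits at the end of that route. Liver parenchymal cells, the hepatocytes, secrete most plasma proteins, clear drugs and hormones, and can take on a stressed or regenerating state in which keratins, cytoskeletal genes and fetal genes are raised.

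Values are normalized intensities of probe sets, the groups of short probes that report 1 transcript on an Affymetrix mouse expression array. An intensity of 16 is the floor, the lowest value distinguished, and a gene was read from its brightest probe set unless another is named. Differences are knockout minus wild type on the log2 scale, with their standard error, from limma, and called means a Benjamini-Hochberg adjusted p under 0.05. The knockout label was borne out by Scd1 itself, the largest fall on the array (-9.18 ± 0.16). Along the first principal component of the 10 arrays, which held 75.2% of their variance, all 5 knockout livers lay on one side and all 5 wild-type livers on the other. Along the next one, with 6.52%, the second knockout liver stood apart at -40.0 while the other 9 livers lay between -11.7 and 17.5, and leaving that liver out gave 3533 rises and 4461 falls against 3487 and 4183 with it. The ratio of the actin control's 3-prime to 5-prime probe sets averaged 1.82 in knockout and 2.19 in wild-type livers (two-sided exact permutation test, p = 0.0159, n = 5 and 5), and that of the Gapdh control 1.29 and 1.32 (exact p = 0.508). The percent of probe sets at the floor averaged 28.3 in knockout and 27.5 in wild-type livers (exact p = 0.0159). The part of RNA quality in the results was not tested.

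Of 18193 genes, 3487 rose (19.2%) and 4183 fell (23%) in the knockout, 42.2% together, and the 5 knockout livers lay wholly outside the wild-type range for 30.1% of genes. Among the 16187 genes above the floor on at least 1 array the shares were 21.5% higher and 25.8% lower, and the median difference was -0.06. A change of at least 2-fold was called for 775 rises (4.26%) and 542 falls (2.98%). When the arrays were centred on the hybridization controls, RNAs added in fixed amounts, the median difference of the measured genes became 0.11 and the split became 4418 rises against 961 falls, so the count of falls moved with the scaling far more than that of rises. Of the 3487 rises, 3431 were called in that scaling, and all 961 falls were among the 4183. Where members of a gene list fell, counts are therefore given below with both scalings. Under control centring 24.3% of all genes rose and 5.28% fell. The plot of all measured genes shows that large differences occurred at every intensity above the floor.

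**Figure D1:**
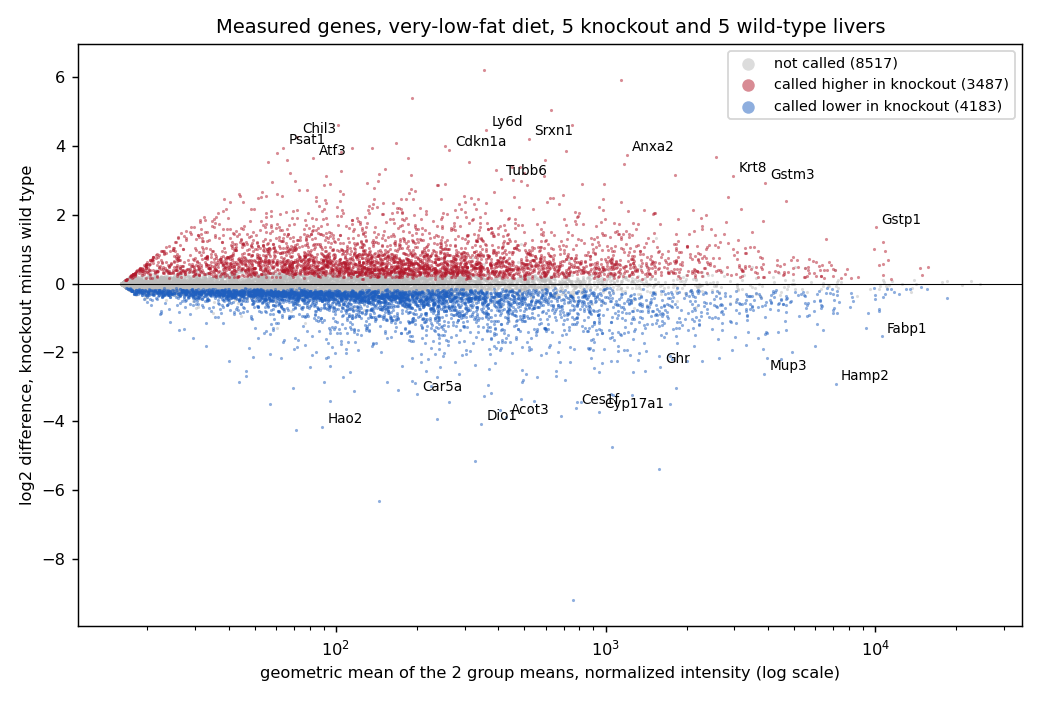
Difference between 5 Scd1-/- and 5 Scd1+/+ livers on the very-low-fat diet (vertical, log2) against intensity (horizontal, geometric mean of the 2 group means, log scale) for the 16187 measured genes. Red points are the 3487 genes called higher in knockout, blue points the 4183 called lower and grey points those not called, and the labelled genes are described in the text or belong to the largest differences.

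Genes of epithelium, oxidant defence and growth arrest whose intensity was low in wild-type livers were among the large rises. Some larger rises are not described here. Ly6d, a membrane-anchored marker of stratified epithelium and of early lymphocytes, had intensities of 2369, 1577, 1756, 996 and 1729.9 in the knockout livers and 70.5, 62.6, 70.7, 125 and 56.5 in the wild-type livers. The groups were far apart, the lowest knockout liver being the fourth, and Ly6d rose 22.0-fold (4.46 ± 0.24, adjusted p = 7.7e-11). Srxn1, sulfiredoxin, repairs over-oxidized peroxiredoxins. It measured 2224, 1267, 2352, 2512 and 2861 in the knockout livers and 129, 108, 111, 158 and 93.8 in the wild-type livers. It was lowest in the second knockout liver, even there above every wild-type value, and rose 18.4-fold (4.20 ± 0.18). Ifrd1, a transcriptional co-regulator, measured 644, 372, 1033, 775 and 686 in the knockout livers and 39.8, 30.7, 38.7, 47.1 and 42.0 in the wild-type livers, again lowest in the second knockout liver and without overlap (4.08 ± 0.25). Nucb2, the calcium-binding precursor of nesfatin, rose 15.4-fold, with a mean of 451 ± 104 in knockout against 28.9 ± 4.41 in wild-type livers (mean ± SD, n = 5 and 5). Cdkn1a, the cyclin-dependent kinase inhibitor p21, measured 1031, 864, 1309, 775 and 1104 in the knockout livers and 71.8, 60.8, 54.7, 89.3 and 65.6 in the wild-type livers. All 5 knockout livers were above every wild-type liver, and the difference was 3.89 ± 0.29 (adjusted p = 6.2e-09). Tnfrsf12a, the receptor for the cytokine TWEAK, rose 10.3-fold (3.37 ± 0.12), with a mean of 1560.3 ± 279 in knockout against 149 ± 10.8 in wild-type livers.

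Among highly expressed genes, the 8 largest rises in absolute intensity were those of Gstp1, Gstm3, Hp, Lcn2, Mt1, Igfbp1, Krt8 and Cp. Gstp1, the pi-class glutathione transferase, measured 17138, 18376, 16848, 17731 and 18130.3 in the knockout livers and 5720.0, 4916, 5213, 6279 and 6406 in the wild-type livers. Its groups were tight and far apart (1.64 ± 0.09, adjusted p = 1.4e-10). Gstm3, a mu-class transferase, rose 7.6-fold, with a mean of 10678 ± 1613 in knockout against 1433 ± 347 in wild-type livers. Hp, haptoglobin, the acute-phase protein that binds free hemoglobin, rose by 1.21 ± 0.14, with a mean of 16266 ± 1136 in knockout against 7036 ± 811 in wild-type livers. Cp, the copper-carrying ferroxidase ceruloplasmin, rose by 0.94 ± 0.08, with a mean of 15048 ± 1909.8 in knockout against 7804 ± 455 in wild-type livers.

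Among the 12 largest falls were those of enzymes of peroxisomes, thyroid hormone and steroid metabolism. Dio1, the deiodinase that activates thyroid hormone, measured 172, 51.6, 88.2, 68.4 and 62.0 in the knockout livers and 1421, 1476, 1296, 1422 and 1142 in the wild-type livers. The first knockout liver was the highest of its group and far below the lowest wild-type liver, and Dio1 fell 16.8-fold (-4.07 ± 0.27, adjusted p = 1.2e-09). Acot3, a peroxisomal acyl-CoA thioesterase, measured 163, 122, 131, 99.5 and 53.7 in the knockout livers and 1653, 1309.8, 1863, 1790.0 and 1346 in the wild-type livers (-3.88 ± 0.38). Its groups did not overlap, and its lowest value was in the fifth knockout liver. Hao2, a peroxisomal hydroxy-acid oxidase, measured 16.4, 21.1, 19.8, 22.0 and 20.5 in the knockout livers and 187, 394, 227, 617 and 551 in the wild-type livers. The knockout livers were near the floor and close together while the wild-type livers ranged over 3-fold (-4.16 ± 0.65). Cyp17a1, a steroid 17-hydroxylase and lyase expressed in mouse liver, measured 674, 72.2, 207, 374 and 156 in the knockout livers and 2909.5, 2429, 3569, 3225 and 2879 in the wild-type livers. The knockout livers ranged widely, from the second to the first liver, and all lay below the wild-type livers (-3.72 ± 0.42). In absolute intensity the largest fall after Scd1 was that of Hamp2, a paralog of the iron hormone hepcidin, with 1701, 2007, 3225, 3934 and 2426 in the knockout livers and 20012, 16848, 20348, 19174 and 19174 in the wild-type livers. Hamp2 fell 7.5-fold (-2.91 ± 0.42), whereas hepcidin itself, Hamp, was not called (-0.24 ± 0.16, adjusted p = 0.29). The size of the Hamp2 fall rests on the probe set read: it was -1.57 with the mean of its probe sets and -0.22 without the less specific designs (names ending in _x_at, _s_at or _a_at), called in both. The 2 genes are nearly identical, so reads of one by the other's probe set cannot be told apart here. Fabp1, the liver fatty-acid-binding protein, fell by 1.53 ± 0.12, with a mean of 6295 ± 1682 in knockout against 17694 ± 903 in wild-type livers. Pon1, paraoxonase of HDL particles, fell by 2.19 ± 0.12, with a mean of 2127 ± 526 in knockout against 9436 ± 318 in wild-type livers. Hpd, a tyrosine-degrading dioxygenase, fell by 1.29 ± 0.08, with a mean of 5922 ± 896 in knockout against 14329.7 ± 799 in wild-type livers.

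Some genes went from the floor in all 5 livers of 1 genotype to above it in all 5 of the other: 33 genes were on only in knockout livers and 14 only in wild-type livers. Psat1, the aminotransferase of serine synthesis, measured 239, 167, 233, 271 and 352 in the knockout livers and 16 in all 5 wild-type livers, at least 15.3-fold higher by the floor (adjusted p = 6.8e-14). Chil3, a chitinase-like secreted product of macrophages, measured 334, 474, 374, 190.3 and 244 in the knockout livers and 16 in all 5 wild-type livers, at least 19.2-fold higher. Mmp12, macrophage metalloelastase, measured 297, 327, 194, 153 and 177 in the knockout livers and 16 in all 5 wild-type livers, at least 13.7-fold higher. All 3 genes thus separated the groups completely, with the lowest knockout liver several times above the floor. Hspa1a, an inducible HSP70 chaperone, was likewise at least 11.6-fold higher, Bex1, an adaptor protein of neurons, at least 6.11-fold, and Ampd3, an AMP deaminase, at least 5.43-fold. Of the 14 genes in the other direction, Hectd2os, a noncoding RNA, was at least 2.55-fold lower, though no longer called with a floor of 32. Col4a4, a basement membrane collagen, fell by 0.30 ± 0.09 from values close to the floor, a call lost under control centring and with a floor of 32, and S1pr5 was not called (-0.29 ± 0.16).

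**Figure D2:**
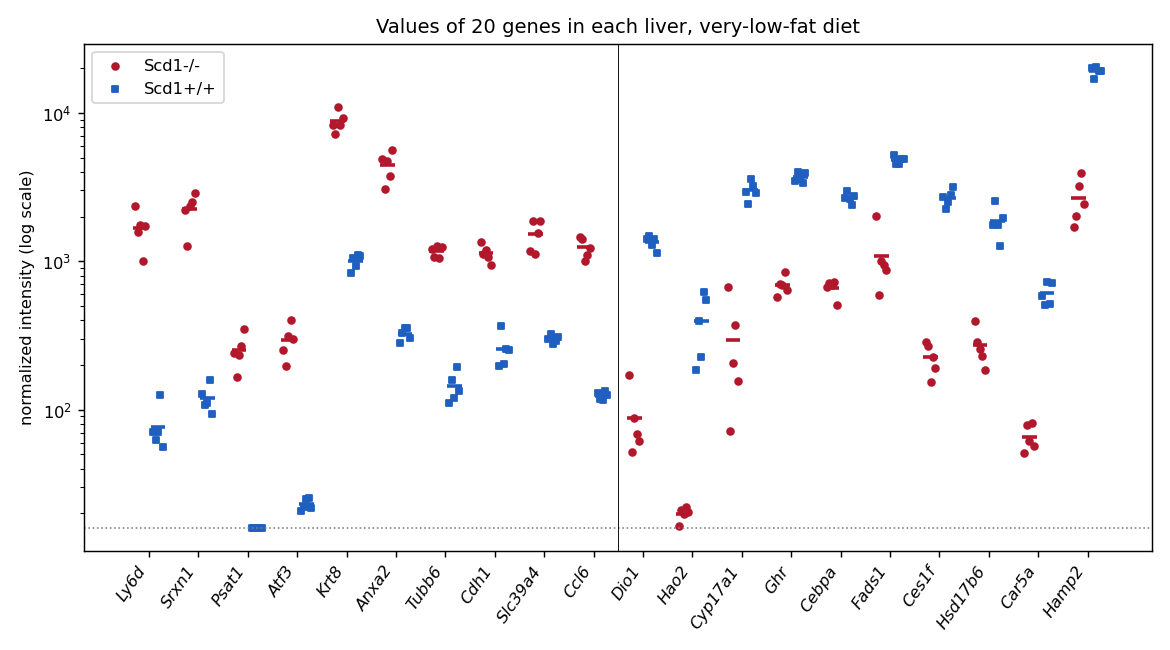
Normalized intensity (log scale) of 20 genes in each of 5 Scd1-/- livers (red circles) and 5 Scd1+/+ livers (blue squares) on the very-low-fat diet; bars are group means and the dotted line is the floor of 16. The 10 genes left of the vertical line were higher and the 10 on its right lower in every knockout liver than in every wild-type liver.

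A list of immediate-early and AP-1 genes, of a class that many stimuli switch on within minutes, mostly rose. Only some of its members, such as Fos and Jun, pair up as the AP-1 factor. Of 24 measured members 15 rose, 1 fell and 8 were not called (16 and 0 under control centring), with a median of 0.49 against -0.06 over all measured genes. Atf3, a stress-induced partner of Jun, measured 253, 197, 315, 404 and 301 in the knockout livers and 20.9, 22.2, 25.1, 25.4 and 21.7 in the wild-type livers. Every wild-type liver was under 30 and every knockout liver near or above 200, a rise of 12.4-fold (3.64 ± 0.14, adjusted p = 1.1e-12). Fos measured 267, 100.5, 443, 257 and 212 in the knockout livers and 38.3, 28.3, 29.6, 35.2 and 29.1 in the wild-type livers. The second knockout liver was the lowest and still above the wild-type range (2.85 ± 0.31). Jun rose by 2.19 ± 0.20, Egr1 by 2.44 ± 0.51 and Ier3, a survival factor, by 2.05 ± 0.15. Myc, the growth-promoting factor, measured 177, 208, 255, 189 and 199 in the knockout livers and 44.5, 46.9, 36.6, 42.5 and 34.0 in the wild-type livers, a rise of 5.0-fold with tight groups (2.33 ± 0.13). Egr3 was the member that fell (-0.24 ± 0.08), and neither other scaling called it. Among 15 Kruppel-like factors 4 rose and 4 fell, with Klf4 (2.55 ± 0.14) and Klf6 (2.19 ± 0.10), both of injured epithelium, among the rises and Klf12 (-1.62 ± 0.11) among the falls (6 and 3 under control centring). Dual-specificity phosphatases, which switch off MAP kinases, had 7 rises and 5 falls among 19 (9 and 0 under control centring). Dusp1 rose by 2.47 ± 0.32, Dusp4 by 1.64 ± 0.16 and Dusp5 by 1.20 ± 0.15, while the 5 that fell all changed by less than 0.7. Ddit4, a stress- and glucocorticoid-induced inhibitor of mTOR, rose by 3.38 ± 0.42, and it also rose on chow (2.12 ± 0.42), and the difference between diets was not called (1.26 ± 0.59, adjusted p = 0.18).

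RefSeq promoter windows of build GRCm38.p6 were searched for short motifs in the 250 bases before each annotated start, on both strands. The AP-1 site was searched as TGANTCA, which allows any middle base, so a match is not always the canonical site. A match was present in 8.3% of 744 windows of genes raised at least 2-fold. The shares were 5.9% of 560 windows of genes lowered at least 2-fold and 5.3% of all 16320 windows. The core of the antioxidant response element, TGACNNNGC, was present in 15.5%, 10.0% and 11.6% of those windows, and the C/EBP-ATF composite element, TGATGNAA, in 3.9%, 2.3% and 2.2%. The first 2 motifs can lie over each other, and in 11 of the raised windows their matches overlapped or nearly touched. The E-box, CACGTG, was found in 7.3%, 8.4% and 7.6%, the D-box core, TTATGNAA, in 2.8%, 3.8% and 2.0%, and the CCAAT box, CCAAT, in 35.8%, 40.9% and 34.5%. These shares are descriptions, and a match is not evidence that a factor binds there.

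Windows are shown for 4 raised genes, because their matches are the 3 motifs above, and for 1 lowered gene, Igf1, which holds an AP-1 match as well. Capitals mark the AP-1, antioxidant and C/EBP-ATF matches. Srxn1 (chr2:152105274-152105523, plus strand) has AP-1 matches 102 and 45 bases before the start. Sprr1a, the squamous envelope gene with the largest rise (chr3:92485882-92486131, minus strand), has AP-1 matches 146 and 116 bases before the start, the first within an antioxidant match. Gstp1 (chr19:4037913-4038162, minus strand) has an AP-1 match at 74 bases. Slc7a11, the cystine importer (chr3:50443614-50443863, minus strand), has C/EBP-ATF matches in opposite orientations at 66 and 47 bases. Igf1 (chr10:87860861-87861110, plus strand) has an AP-1 match at 37 bases. That match reads TGAATCA, where the AP-1 matches of Srxn1, Sprr1a and Gstp1 read TGAGTCA. In this build the sequences, 5′ to 3′ on the gene's strand, read:
Srxn1: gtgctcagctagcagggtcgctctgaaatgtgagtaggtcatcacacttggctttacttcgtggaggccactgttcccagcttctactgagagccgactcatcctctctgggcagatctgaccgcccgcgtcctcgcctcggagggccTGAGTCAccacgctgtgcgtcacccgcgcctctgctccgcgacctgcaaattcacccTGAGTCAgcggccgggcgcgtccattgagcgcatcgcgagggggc
Sprr1a: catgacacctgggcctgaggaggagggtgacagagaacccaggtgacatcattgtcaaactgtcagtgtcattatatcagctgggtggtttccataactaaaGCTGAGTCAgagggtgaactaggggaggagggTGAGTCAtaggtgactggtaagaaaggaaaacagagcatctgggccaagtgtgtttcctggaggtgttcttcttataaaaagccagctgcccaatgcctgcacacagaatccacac
Gstp1: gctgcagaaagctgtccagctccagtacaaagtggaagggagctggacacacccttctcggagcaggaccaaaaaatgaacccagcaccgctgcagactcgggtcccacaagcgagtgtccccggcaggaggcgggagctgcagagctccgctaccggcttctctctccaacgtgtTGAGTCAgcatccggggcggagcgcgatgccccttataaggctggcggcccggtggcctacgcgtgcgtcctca
Slc7a11: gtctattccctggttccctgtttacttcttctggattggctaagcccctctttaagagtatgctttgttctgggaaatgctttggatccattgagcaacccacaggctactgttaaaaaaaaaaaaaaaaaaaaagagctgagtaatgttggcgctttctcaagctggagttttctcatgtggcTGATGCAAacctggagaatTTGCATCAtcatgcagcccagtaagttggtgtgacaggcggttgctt
Igf1: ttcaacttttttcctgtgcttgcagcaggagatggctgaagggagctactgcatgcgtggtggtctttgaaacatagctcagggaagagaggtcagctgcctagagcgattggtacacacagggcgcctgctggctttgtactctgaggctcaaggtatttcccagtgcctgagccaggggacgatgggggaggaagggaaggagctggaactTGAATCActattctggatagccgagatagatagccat
Of the 12 largest rises, 10 had a window and 2 of these an AP-1 match; of the 12 largest falls, 8 had a window and none an AP-1 match. An antioxidant match was present in 1 of the 10 and in 2 of the 8.

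The keratin pair of hepatocytes rose, and the keratins of bile ducts were not called. Krt8 measured 8269.9, 7220.1, 10952, 8304 and 9177 in the knockout livers and 836, 1058, 928, 1108 and 1089 in the wild-type livers. The groups did not overlap, and Krt8 rose 8.7-fold (3.12 ± 0.14, adjusted p = 6.1e-12), and 2 further probe sets of Krt8 rose by 3.12 and 2.96. Its partner Krt18 measured 6859, 6231, 8553, 5213 and 7039 in the knockout livers and 1029.6, 1619, 1059.6, 1193 and 1099 in the wild-type livers (2.50 ± 0.15). Krt19 (0.02 ± 0.08, adjusted p = 1) and Krt7 (0.06 ± 0.05, adjusted p = 0.42), both of duct cells, were not called. Krt7 was near the floor, with means of 17.3 in knockout and 16.6 in wild-type livers, where Krt19 had 54.3 and 53.7. Of 21 keratin and envelope genes 7 rose and 3 fell, the falls being Tgm1 (-1.69 ± 0.23), Jup (-0.30 ± 0.06) and Sprr3 (-0.27 ± 0.07), of which the latter pair were not called under control centring, where 7 rose and 1 fell. The transglutaminase Tgm2 rose by 1.32 ± 0.13. Among cholangiocyte markers 2 of 7 matched rose, Sox9 and Cldn4, none fell and Cftr was at the floor in all 10 livers. Their summed intensity was 410.4 to 501 in knockout and 325 to 376 in wild-type livers, and their part in the result was not tested.

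Genes of the cytoskeleton and of membrane-binding proteins rose broadly. Of 36 tubulin and actin-cytoskeleton genes 28 rose, 1 fell and 7 were not called (30 and 1 under control centring; median 0.92). Tubb6, a beta-tubulin, measured 1217, 1060.2, 1264, 1046 and 1242 in the knockout livers and 112, 159, 120.3, 192 and 135 in the wild-type livers, a rise of 8.3-fold with no overlap (3.05 ± 0.13). A second, dim Tubb6 probe set, with means of 16.3 and 20.5, was called lower by 0.33. Tubb2a rose by 1.87 ± 0.37, Tmsb10, thymosin beta 10, by 2.13 ± 0.13, Capg, an actin-capping protein, by 2.50 ± 0.10 and Tagln2 by 1.73 ± 0.08. Rdx, radixin, which anchors canalicular transporters to actin, measured 919, 793, 973, 897 and 881 in the knockout livers and 1891, 1799, 1799, 1599 and 1972 in the wild-type livers. It was the only member that fell (-1.02 ± 0.06), with groups that did not overlap. Of 10 annexins, calcium-dependent membrane binders, 8 rose and none fell (median 0.95; the count of rises was 7 to 8 in both other scalings). Anxa2 measured 4856, 3091, 4742, 3777 and 5646 in the knockout livers and 279.9, 327, 354, 355 and 306 in the wild-type livers. The second knockout liver was lowest, and even there Anxa2 was above every wild-type value (3.74 ± 0.13, adjusted p = 2.6e-13). The one other probe set used without the less specific designs, named above, was at the floor for Anxa2, as it was for Tmsb10. Anxa5 rose by 1.91 ± 0.09, Anxa3 by 1.51 ± 0.11 and Anxa1 by 1.30 ± 0.21. Cdh1, E-cadherin, measured 1346, 1111, 1198, 1061 and 947 in the knockout livers and 196, 367, 204, 257 and 254 in the wild-type livers, a rise of 4.5-fold with no overlap (2.18 ± 0.23), and the tight-junction gene Cldn4 rose by 1.57 ± 0.16. The tight-junction list as a whole had 4 rises and 3 falls among 18 (4 and 0 under control centring). Stellate cell and fibroblast markers rose in 7 of 11 and fell in 1, the retinol esterifier Lrat, whose call was lost in 8 alternatives, both other scalings among them, with summed intensities of 5858 to 7489 in knockout and 3401 to 4210 in wild-type livers, and their part in these rises was not tested. In whole tissue, more cells of a type and more RNA per cell cannot be told apart.

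The fetal liver protein Afp, alpha-fetoprotein, was missed by the probe set that was brightest over the 20 arrays but not by 3 others. The brightest of its 5 probe sets, 1436880_at, read means of 54.2 and 59.1 (-0.13 ± 0.11, adjusted p = 0.45). Probe set 1416645_a_at measured 796, 3792, 644, 1689 and 3694 in the knockout livers and 16, 16, 16, 28.6 and 16 in the wild-type livers. All knockout livers were high, the second and the fifth highest, and 4 of 5 wild-type livers were at the floor (6.52 ± 0.38, limma adjusted p = 2.3e-10). This standard error rests on the spread of all 4 groups, and livers at the floor add none, so it understates the spread of the knockout livers. Probe set 1436879_x_at measured 288, 1101, 238, 427 and 1349.5 in the knockout livers and was at the floor in all wild-type livers (5.06 ± 0.34). Probe set 1416646_at measured 299, 1379, 181, 367 and 1045 in the knockout livers and 21.8 to 31.0 in the wild-type livers (4.24 ± 0.38). The second and the fifth knockout liver were the highest on all 3. On chow both genotypes were at the floor on 1416645_a_at and 1436879_x_at in all 10 livers, and the fifth probe set was at the floor in all 20. On 1416645_a_at the difference between diets was thus 6.52. These probe sets were singled out after their values were seen.

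Genes of fetal liver and liver tumours, Afp included, rose in 9 of 18 measured members and fell in none by their brightest probe sets (median 0.19), and with the most variable probe set of each gene, an alternative chosen after seeing the data, 12 rose. Cd44, a hyaluronan receptor, measured 641, 524, 537, 541 and 654 in the knockout livers and 128, 147, 110.5, 140.1 and 138 in the wild-type livers, a rise of 4.4-fold with no overlap (2.13 ± 0.17). Spink1, a protease inhibitor, rose by 2.15 ± 0.15, Pkm, the pyruvate kinase of fetal and dividing cells, by 1.86 ± 0.11, Prom1 by 1.43 ± 0.44, Aldoa by 1.29 ± 0.16 and Sox9, a progenitor and duct factor, by 1.16 ± 0.12. Spink1 is also a pancreas gene, and exocrine pancreas markers had sums of 444 to 607 in knockout and 605 to 3008 in wild-type livers. Igf2 (-0.15 ± 0.12), Dlk1 (-0.15 ± 0.11) and Epcam (-0.24 ± 0.18), which marks progenitor and duct cells, were not called.

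The choice of probe set hid other differences. Of 9010 genes with several probe sets, 4388 were called by their brightest one. For 82 genes that were not called, another probe set was called with a difference of at least 2-fold, 75 of them higher and 7 lower. For 321 of the called genes another probe set was called the opposite way, and for 17 called genes it moved at least 2-fold that way. Cpe, the prohormone-processing carboxypeptidase E, measured 229.5, 339, 363, 210.0 and 475 in the knockout livers and 16 in all 5 wild-type livers on 1415949_at (4.27 ± 0.15), with its brightest probe set not called (-0.43 ± 0.20). Nfe2l2, which encodes the oxidant-responsive factor NRF2, measured 95.9, 161, 116, 29.8 and 54.3 in the knockout livers and 16 in all 5 wild-type livers on 1457117_at. All wild-type livers were at the floor (2.29 ± 0.29), while the brightest probe set gave -0.28 ± 0.18 (adjusted p = 0.28). Ddr1, a collagen receptor, measured 229, 227, 331, 293 and 279 in the knockout livers and 19.2, 22.2, 16, 28.3 and 20.4 in the wild-type livers on 1456226_x_at. Its groups were far apart (3.69 ± 0.21), and its brightest probe set was called the other way (-0.30 ± 0.11), a call lost in both other scalings. Emp1, an epithelial membrane protein, rose by 2.49 ± 0.17 on 1416529_at against -0.26 ± 0.08, and the ribosomal gene Rpl22 fell by 1.63 on 1448398_s_at against 0.24 ± 0.05. Hspa4, an HSP70-family chaperone, rose by 0.97 ± 0.10 on its brightest probe set and fell by 1.34 and 1.08 on 2 others. Without the less specific designs, 8 genes named here stayed called with a difference at least 1.5-fold smaller: Hamp2 and Mt1, Srxn1 (2.92), Lifr (-1.35), Me1 (-1.22), Tubb2a (0.89), Socs3 (0.64) and Sqstm1 (0.61), while Fkbp4 (-0.27) and Fabp4, an adipocyte marker (0.22), lost their calls. Directions of the genes first named in this paragraph rest on the probe set read, and they were chosen after their values were seen.

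Genes that make proteins rose together by small amounts. All but 2 of 36 measured cytosolic ribosomal protein genes rose and none fell (median 0.38), Rpl12 the most (1.19 ± 0.12) and Rps2 (0.06 ± 0.03) and Rps6 (0.19 ± 0.10) uncalled. Of 29 ribosome biogenesis genes, which build ribosomes in the nucleolus, 23 rose and none fell (median 0.63). Nop58, a nucleolar protein, measured 95.2, 76.0, 126, 126 and 103 in the knockout livers and 22.6, 24.2, 17.8, 31.5 and 20.4 in the wild-type livers, with the groups well separated (2.18 ± 0.23). Ncl, nucleolin, measured 1837, 1844, 2342, 2160.5 and 2023 in the knockout livers and 762, 799.9, 659, 817 and 809.9 in the wild-type livers, a rise of 2.6-fold (1.41 ± 0.07). Nolc1 (1.55 ± 0.14), Nhp2 (1.49 ± 0.06) and Gnl3 (1.40 ± 0.17) rose as well. Of 18 cytosolic tRNA synthetases 13 rose and none fell (median 0.58), the glycine enzyme Gars most (1.76 ± 0.08), followed by Vars (1.16 ± 0.07) and Lars (0.99 ± 0.15), while Aars (0.22 ± 0.12) was not called. These 3 lists kept 0 called falls in both other scalings. Over all alternatives, some of which hold fewer genes, the ribosomal protein list had 10 to 35 rises and 0 to 2 falls. Its median was 0.23 to 0.60 in these. Ribosome biogenesis (19 to 26 rises) and tRNA synthetases (10 to 14) kept 0 falls in all of them.

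Proteasome subunits rose in 24 of 31 and fell in none (median 0.27). Psmd8, a subunit of the regulatory cap, measured 4045, 4052, 4193, 3863 and 4177 in the knockout livers and 1286, 1270.3, 1250.1, 1314 and 1238 in the wild-type livers. It was the only subunit past 2-fold (1.68 ± 0.04, adjusted p = 5.0e-15), and the next were Psmc4 (0.71 ± 0.13) and Psmb5 (0.62 ± 0.04). Sqstm1, an autophagy cargo receptor and oxidant-responsive gene, measured 5042, 3558, 7119, 7220.1 and 7017 in the knockout livers and 2072, 2512, 1874, 1935 and 1851 in the wild-type livers (1.51 ± 0.16), with the second knockout liver lowest and no overlap. The other autophagy genes split into 7 rises and 11 falls of 23, and the majority of the 24 turned to rises under median scaling (10 against 8) and control centring (10 against 6). Ulk2 (-1.05 ± 0.07) and Atg3 (-0.97 ± 0.06) fell the most. Cytosolic chaperones were mixed, with 12 rises and 9 falls of 31: Hspa1b (2.87 ± 0.22) and Hspb1 (1.70 ± 0.24) rose, and Dnajb2 (-1.40 ± 0.21), Fkbp4 (-1.24 ± 0.12) and Hsph1 (-1.09 ± 0.31) fell. Under control centring 16 chaperones rose and 2 fell, Hsph1 no longer among them.

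In serine synthesis, beside Psat1, the serine phosphatase Psph rose by 2.88 ± 0.21, with a mean of 252 ± 33.8 in knockout against 35.9 ± 14.7 in wild-type livers. Phgdh, the first enzyme of the route, rose by 2.14 ± 0.11 on 1454714_x_at and by 2.23 ± 0.14 on 1437621_x_at, and its brightest probe set was not called (-0.07 ± 0.15). Of 31 amino acid transporters 14 rose and 6 fell (15 and 4 under control centring), with a median of 0.05 that became -0.0082 with bright probe sets only. Slc7a11, which imports cystine for glutathione synthesis, measured 87.6, 29.6, 77.8, 61.6 and 109 in the knockout livers and 18.1, 16, 17.6, 16 and 20.9 in the wild-type livers. It was near the floor in wild-type livers and lowest among knockout livers in the second (1.93 ± 0.23). Its partner Slc3a2 measured 1272, 894, 1592, 1335 and 1690.3 in the knockout livers and 368, 376, 346, 355 and 358 in the wild-type livers (1.88 ± 0.12), and the arginine carrier Slc7a1 (1.30 ± 0.11) and the taurine carrier Slc6a6 (1.29 ± 0.19) rose as well. Slc38a3, the glutamine carrier of periportal hepatocytes, measured 2781, 2896, 2632, 2632 and 2399.5 in the knockout livers and 6166, 6759, 8102, 6446 and 8393 in the wild-type livers, a fall of 2.7-fold without overlap (-1.42 ± 0.10), and Slc38a4 fell by 0.89 ± 0.08. In sulfur amino acid and taurine metabolism 13 of 25 fell and 6 rose (9 and 7 under control centring). The glutathione enzymes Gclc (1.80 ± 0.18) and Gss (1.54 ± 0.15) rose, Sardh (-1.48 ± 0.11), Cbs (-0.93 ± 0.15) and Gnmt (-0.75 ± 0.10) fell, and Csad, of taurine synthesis, was not called (-0.32 ± 0.34, adjusted p = 0.58). On chow Csad fell (-2.61 ± 0.34), and its genotype difference differed between diets (2.28 ± 0.47, adjusted p = 0.0017).

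Lysosomal genes rose in 27 of 42 and fell in 7 (median 0.44), with 28 rises and 0 falls under control centring. Lgmn, legumain, measured 1233, 1200.4, 926, 852 and 980.5 in the knockout livers and 212, 251, 204, 207 and 223 in the wild-type livers, a rise of 4.7-fold (2.23 ± 0.12). Ctss, a cathepsin of antigen-presenting cells, measured 2919, 3242, 2489, 3043 and 2791 in the knockout livers and 601, 692, 637, 644 and 751 in the wild-type livers (2.12 ± 0.10). Both genes had tight groups that did not overlap. Arsa (1.40 ± 0.12), Ctsz (1.27 ± 0.08) and Gusb (1.22 ± 0.12) rose, and Npc1 (-0.61 ± 0.08), Gaa (-0.43 ± 0.07) and Lipa (-0.42 ± 0.10) were among the falls of the first scaling. Of 12 markers of macrophages and Kupffer cells 11 rose and none fell, Gpnmb (3.93 ± 0.18), Marco (3.65 ± 0.39) and Cd68 (2.32 ± 0.13) the most and Clec4f (0.66 ± 0.18), of resident Kupffer cells, the least of the 11, with a summed intensity of 11464 to 19224 in knockout and 5097 to 6178 in wild-type livers, and their part in the lysosomal rises was not tested.

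Counts of rises among innate immunity genes are set here against the 21.5% of all measured genes that rose. Of 28 Toll-like receptor and NF-kB feedback genes 16 rose and 1, Tlr9, fell (-0.32 ± 0.10; not called in either other scaling), with a median of 0.35. Tlr13, a sensor of bacterial RNA, measured 168, 269, 146, 104 and 122 in the knockout livers and 41.8, 34.3, 46.0, 40.0 and 44.7 in the wild-type livers, highest in the second knockout liver and without overlap (1.89 ± 0.19), and Irak3, a brake on these receptors, rose by 1.48 ± 0.21. Among 25 chemokines 7 rose, 3 fell and 15 were not called (12 and 2 rose and fell under control centring). Ccl6 measured 1466, 1408, 999, 1110.4 and 1222 in the knockout livers and 129, 117, 116, 134 and 125 in the wild-type livers, a rise of 9.9-fold with tight groups (3.31 ± 0.22, adjusted p = 1.3e-09). Cxcl2, a neutrophil attractant, measured 42.5, 42.1, 113, 55.6 and 55.1 in the knockout livers and 16 in all 5 wild-type livers, at least 3.58-fold higher. Cxcl10 (1.74 ± 0.27) and Ccl2 (1.60 ± 0.19) rose, Ccl27a (-2.06 ± 0.14), Cxcl12 (-1.04 ± 0.12) and Cxcl11 (-0.73 ± 0.21) fell, and Ccl5, of lymphocytes, was not called (0.21 ± 0.13) unless the scaling was changed (0.53 under control centring, where Cxcl11 lost its call). Another probe set of the neutrophil attractant Cxcl1 was called (2.23 ± 0.54), with all 5 knockout livers above the wild-type range, where its brightest gave 0.26 ± 0.13. The TNF receptor family had 5 rises and 5 falls among 25 (6 and 1 under control centring), and the chemokine receptors 4 and 3 among 14 (4 and 0). Lymphocyte markers rose in none of 9 matched and fell in 3, with sums of 490 to 618 in knockout and 569.8 to 722 in wild-type livers. Of all measured genes 25.8% fell. The macrophage markers described above rose in 11 of 12, and their part in these rises was not tested.

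The calcium-binding S100 proteins contained some of the largest and most variable rises. S100a8, of neutrophils and monocytes, measured 2934, 774, 859, 404 and 729 in the knockout livers and 52.0, 53.1, 69.6, 62.0 and 45.4 in the wild-type livers. The first knockout liver was several times above the other 4, all of which were above the wild-type range (4.00 ± 0.51, adjusted p = 4.6e-06). Its partner S100a9 measured 1555, 472, 434, 251 and 426 in the knockout livers and 45.2, 59.7, 63.2, 65.7 and 53.7 in the wild-type livers (3.16 ± 0.42), with the same liver highest. S100a6 rose by 3.58 ± 0.25, S100a4 by 1.32 ± 0.16 and S100a10, the partner of Anxa2, by 1.21 ± 0.16. In contrast S100a1 (-0.97 ± 0.06), S100a13 (-0.88 ± 0.06) and S100b (-0.40 ± 0.10, not called under control centring) fell, and 5 others of the 13 were not called (5 rises and 2 falls under control centring). Neutrophil markers as a set rose in 2 of 8 matched, S100a8 and S100a9 themselves, and fell in 1, while Mpo (0.19 ± 0.14) and Ngp (0.36 ± 0.27), granule proteins of neutrophils, were not called. The sums were 1043 to 5121 in knockout and 491 to 619 in wild-type livers, and their part in the S100 rises was not tested.

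Coagulation and complement genes, most of which encode plasma proteins made by hepatocytes, fell more often than they rose. Of 27 coagulation and fibrinolysis genes 19 fell and 2 rose (10 and 2 under control centring; median -0.36). Klkb1, plasma prekallikrein, measured 299, 611, 331, 436 and 298 in the knockout livers and 1393, 1569, 1329.7, 1079 and 1502 in the wild-type livers, a fall of 3.6-fold with no overlap (-1.85 ± 0.16). F13b (-1.12 ± 0.07), F7 (-1.11 ± 0.08) and F10 (-1.03 ± 0.04) fell by about 1, and the fibrinogen chain Fgb (-0.17 ± 0.06) lost its call in both other scalings and without any 1 of 5 livers. The 2 rises were of receptors: Thbd (1.87 ± 0.27), thrombomodulin of endothelium, and Plaur (1.92 ± 0.15), the urokinase receptor. Of 21 complement genes 12 fell and 6 rose (8 and 6 under control centring). C8g measured 1679, 1758, 1684, 1821 and 1977 in the knockout livers and 6066, 5602, 6371, 6331 and 6213 in the wild-type livers, with tight groups (-1.78 ± 0.06, adjusted p = 2.6e-13), and Mbl1 (-1.36 ± 0.10), Masp2 (-1.30 ± 0.07) and C9 (-1.22 ± 0.16) fell too. The rises were led by the macrophage-made C1q chains C1qb (2.03 ± 0.11), C1qc (1.73 ± 0.12) and C1qa (1.50 ± 0.11). Among 16 serpins 5 rose and 6 fell, and under control centring 6 rose and 4 fell; Serpinb6a rose by 2.66 ± 0.09 and Serpinf1 fell by 1.58 ± 0.08. Hepatocyte markers, by comparison, fell in 4 of 10 and rose in none, with sums of 119290.0 to 125209 in knockout and 127421 to 132420 in wild-type livers. Of all measured genes 25.8% fell. Quantile normalization gives each intensity rank a fixed value. Alb read 24366 in every liver of both groups, so it could show no difference, and Apoa1 read 23258 in every knockout liver.

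The growth hormone receptor and the hormone IGF1 fell. Ghr, the growth hormone receptor, measured 571, 707, 695, 843 and 645 in the knockout livers and 3468, 3989, 3558, 3369 and 3960.0 in the wild-type livers. The highest knockout liver was the fourth, several times under the lowest wild-type liver (-2.41 ± 0.10, adjusted p = 2.7e-12), and 2 further probe sets gave -2.58 and -2.39. Igf1, the hormone that Ghr signalling makes the liver secrete, measured 1579, 1761, 1696, 2179 and 1556 in the knockout livers and 4609.5, 5778, 5414, 4499 and 5489 in the wild-type livers (-1.56 ± 0.11), with no overlap and falls of 1.43 to 1.67 on 3 other probe sets. Igfals, which holds IGF1 in the circulation, measured 142, 163, 159, 178 and 132 in the knockout livers and 793, 1145, 886, 613 and 948 in the wild-type livers, a fall of 5.6-fold (-2.48 ± 0.19). Lifr, the receptor of the cytokine LIF, fell by 2.50 ± 0.17. Socs2 (-1.05 ± 0.32) and Cish (-0.67 ± 0.19), both targets of growth hormone, fell as well, but were not called in either other scaling, nor was Socs2 with the mean of its probe sets or without the less specific designs. Igfbp1, the insulin-repressed IGF binding protein, measured 10218, 6084, 9940.1, 7715 and 9708 in the knockout livers and 896, 562, 1260.0, 759 and 280.0 in the wild-type livers, a rise of 12.8-fold without overlap (3.68 ± 0.47), and Socs3, an inhibitor of cytokine receptors, rose by 2.08 ± 0.32. In all, 12 of 23 genes of this axis fell and 4 rose (6 and 5 under control centring), and their median of -0.31 became 0.09 without the less specific probe set designs. Among 22 hepatokines 9 fell and 5 rose, and under control centring 5 did each. Inhbe, activin E, measured 35.0, 47.5, 26.0, 33.5 and 28.4 in the knockout livers and 191, 163, 169, 313 and 108 in the wild-type livers (-2.41 ± 0.32), Hgfac, the activator of hepatocyte growth factor, fell by 1.29 ± 0.08 and Fst, follistatin, which binds activins, rose by 2.45 ± 0.37. Of 22 EGF-family and regeneration genes 9 rose, led by Ccn2 (2.30 ± 0.47), Btc (2.02 ± 0.18) and Nrg4 (1.72 ± 0.34), and 7 fell, among them the receptor Erbb3 (-1.33 ± 0.13); under control centring 2 fell.

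Nuclear receptors and liver-enriched transcription factors mostly fell. Of 34 nuclear receptors 21 fell and 3 rose (9 and 4 under control centring; median -0.35). Ppara, the fatty-acid receptor of fasting, measured 1097, 842, 1551, 1072 and 878 in the knockout livers and 3095, 3214, 3121, 3085 and 2749 in the wild-type livers. The third knockout liver was the highest of its group and still well under the wild-type livers (-1.52 ± 0.17). Nr1i3, the xenobiotic sensor CAR, measured 199.7, 233, 175, 186 and 172 in the knockout livers and 504, 583, 644, 555 and 539 in the wild-type livers (-1.55 ± 0.14), and Nr1h4, the bile acid receptor FXR (-1.34 ± 0.13), and Esr1, the estrogen receptor (-1.51 ± 0.16), fell by similar amounts. Nr4a1, an immediate-early receptor, was the largest rise among them (1.34 ± 0.21), with Rora (0.46 ± 0.12) and Pparg (0.39 ± 0.09). Of 24 hepatocyte factors 15 fell and 2 rose (8 and 4 under control centring). Cebpa, which keeps hepatocytes differentiated, measured 675, 712, 692, 724 and 510.3 in the knockout livers and 2681, 2975, 2626, 2378 and 2754 in the wild-type livers, a fall of 4.1-fold with no overlap (-2.02 ± 0.13). Its family member Cebpd, of the acute-phase response, rose by 1.79 ± 0.31, and Cebpb was not called (0.44 ± 0.23) except under control centring (0.65). Mlxipl, the carbohydrate-responsive factor ChREBP, measured 212, 276, 205, 311 and 235 in the knockout livers and 804, 952, 651, 689 and 872 in the wild-type livers (-1.68 ± 0.16), and Onecut1 (-1.56 ± 0.25) and Onecut2 (-1.41 ± 0.18) fell. Hnf4a, the central hepatocyte factor, fell by 0.31 ± 0.08 and lost its call under control centring and without the less specific designs, and Foxa3 was not called (-0.05 ± 0.18).

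**Figure D3:**
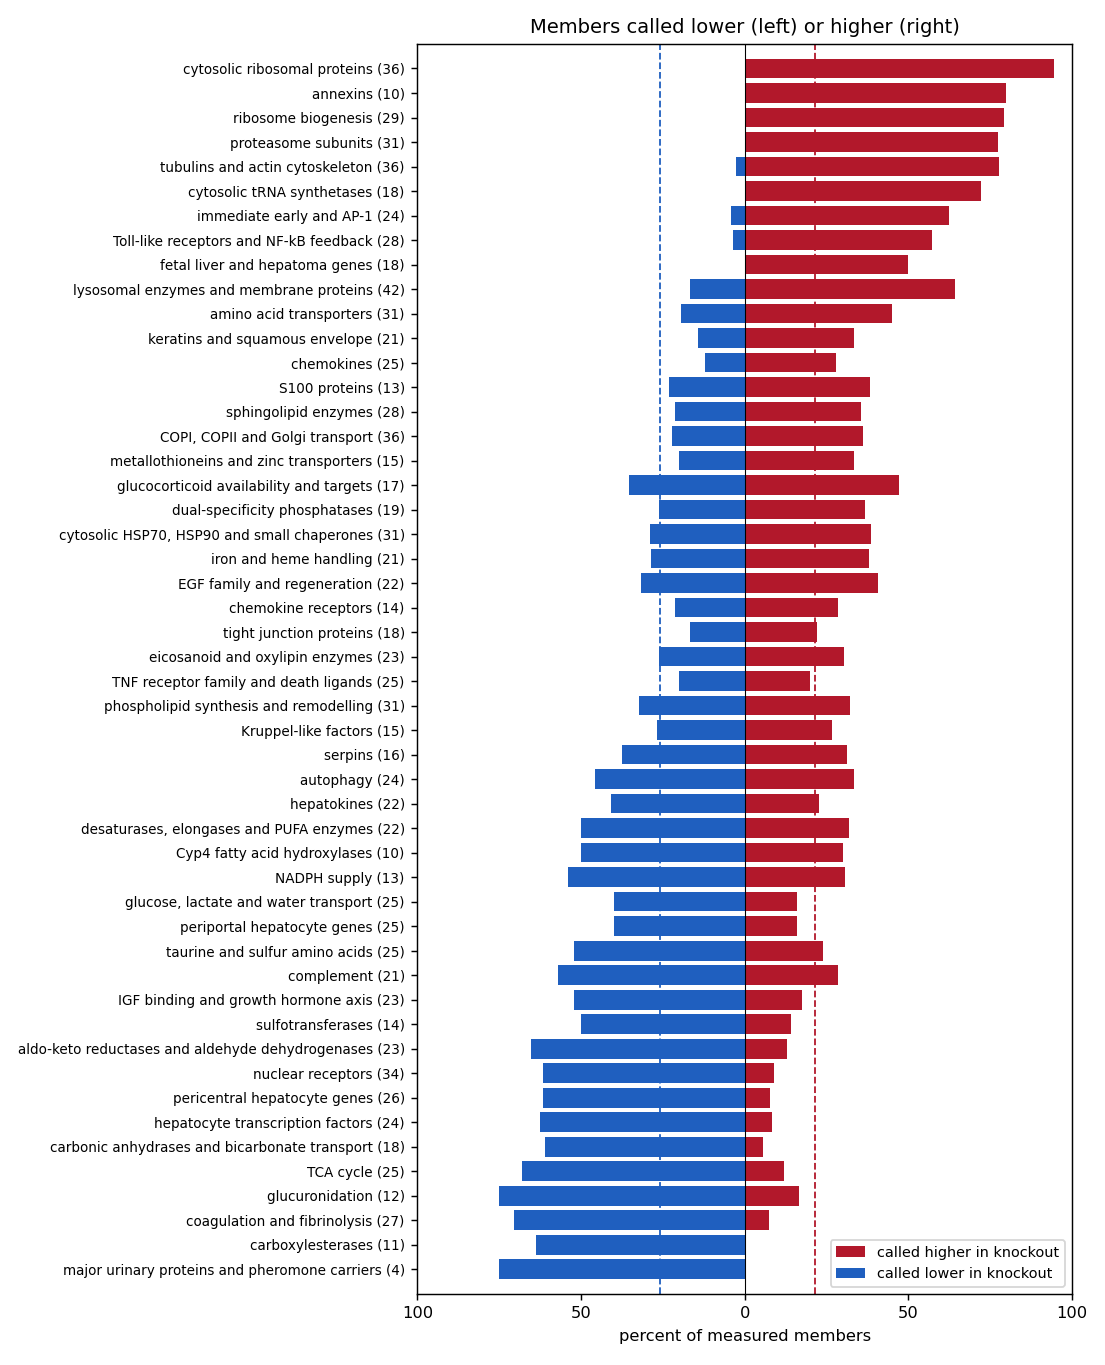
Percent of measured members (number in brackets) of 50 gene lists called higher (red, to the right) or lower (blue, to the left) in knockout livers on the very-low-fat diet; dashed lines mark the shares over all 16187 measured genes, 21.5% higher and 25.8% lower. Ribosomal proteins (34 of 36 higher) stand at the top and the carboxylesterases (7 of 11 lower) and major urinary proteins (3 of 4 lower) at the bottom.

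Enzymes that hydrolyse, conjugate or oxidize drugs and steroids fell in most families. Of 11 carboxylesterases, which cleave esters and also stored triglyceride, 7 fell and none rose (6 and 0 under control centring; median -0.94). Ces1f measured 287, 268, 154, 227 and 191 in the knockout livers and 2728, 2255, 2512, 2805 and 3142 in the wild-type livers, a fall of 12.2-fold with no overlap (-3.60 ± 0.14, adjusted p = 1.6e-12), and Ces1d (-3.21 ± 0.17), Ces1e (-3.09 ± 0.17) and Ces1c (-1.81 ± 0.09) fell as well. These paralogs are similar in sequence, so their probe sets may share RNA. Of 12 glucuronidation genes 9 fell and 2 rose (4 and 2 under control centring). Ugt3a2, a glycosyltransferase, measured 406, 371, 426, 442 and 303 in the knockout livers and 2417, 2371, 2279, 2148 and 2166 in the wild-type livers (-2.56 ± 0.10), and Ugdh, which makes the sugar donor, measured 2381, 2101, 2543, 2704 and 2717 in the knockout livers and 593, 424, 535, 706 and 682 in the wild-type livers, moving the other way (2.10 ± 0.14). Of 14 sulfotransferases and sulfate donors 7 fell and 2 rose (6 and 2 under control centring), Sult2a2 (-3.18 ± 0.80, and -3.66 without wild-type liver 5) and Papss2 (-1.32 ± 0.14) among the falls. Aldo-keto reductases and aldehyde dehydrogenases fell in 15 of 23 and rose in 3 (11 and 4 under control centring), with Akr1c14 (-1.77 ± 0.15) and Aldh3a2 (-1.29 ± 0.18) lower and Akr1b8 (0.96 ± 0.08) higher. Among 23 eicosanoid enzymes 7 rose and 6 fell (8 and 3 under control centring): Ptgr1, a prostaglandin and leukotriene reductase, rose by 2.46 ± 0.20. Cyp2j5, an arachidonic acid epoxygenase, fell by 2.11 ± 0.08, with a mean of 762 ± 109 in knockout against 3261 ± 259 in wild-type livers. Of 10 Cyp4 hydroxylases 5 fell and 3 rose (3 and 3 under control centring), with Cyp4f14 lower (-2.28 ± 0.14) and Cyp4a14 not called (-0.69 ± 0.28, adjusted p = 0.064). All 3 called major urinary proteins of 4 measured fell, under control centring too, and Mup3 had a mean of 1591 ± 517 in knockout against 9359 ± 944 in wild-type livers (-2.62 ± 0.16).

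Genes of both ends of the liver lobule fell more often than they rose, as did all measured genes (25.8% lower and 21.5% higher). Of 26 genes of hepatocytes near the central vein 16 fell and 2 rose (7 and 2 under control centring), and of 25 genes of those near the portal vein 10 fell and 4 rose (8 and 6). Slco1b2, an organic anion importer of the central zone, measured 868, 1519.8, 641, 943 and 762 in the knockout livers and 4491, 3856, 4372, 4129 and 4519 in the wild-type livers (-2.24 ± 0.17), highest in the second knockout liver and without overlap. Glul, glutamine synthetase of the cells around the vein, measured 1801, 947, 1199, 1496 and 1055 in the knockout livers and 3369, 3369, 3674, 4216 and 3101 in the wild-type livers (-1.48 ± 0.20), and the Wnt-dependent Axin2 (-0.38 ± 0.13), Lgr5 (-0.75 ± 0.13) and Rnf43 (-1.24 ± 0.14) fell too, the first pair of these only without control centring, and Axin2 also lost its call without any 1 of 5 livers. Hsd17b6, a periportal steroid dehydrogenase, measured 397, 287, 257, 229 and 185 in the knockout livers and 1756, 2563, 1747, 1265 and 1969.7 in the wild-type livers (-2.79 ± 0.22). Pigr, the receptor that carries IgA into bile, fell by 1.92 ± 0.15, Hal (-1.90 ± 0.20), histidase, and Cyp2f2 (-1.09 ± 0.11) fell too, and the urea-cycle genes Cps1 (-0.08 ± 0.06) and Arg1 (0.10 ± 0.09) were not called.

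In fatty acid remodelling 11 of 22 genes fell and 7 rose (8 and 7 under control centring). Fads1, the delta-5 desaturase of polyunsaturated fatty acids, measured 2031, 594, 1011, 945 and 868 in the knockout livers and 5175, 4519, 4499, 4896 and 4905 in the wild-type livers. The first knockout liver was about 2-fold above the next one and well under the wild-type range (-2.26 ± 0.20). Fads2, the delta-6 desaturase, measured 941, 351, 579.6, 614 and 624 in the knockout livers and 2883, 2594, 2938, 3177 and 2355 in the wild-type livers (-2.23 ± 0.17), and the elongases Elovl2 (-1.61 ± 0.14) and Elovl5 (-1.36 ± 0.14) fell. Scd2, the desaturase isoform of brain and fetal liver, measured 314, 228, 171, 134 and 218 in the knockout livers and 74.4, 49.6, 32.5, 103 and 48.9 in the wild-type livers (1.84 ± 0.32), above the wild-type range in all 5 knockout livers. Acsl4 (1.38 ± 0.23), Fads3 (1.26 ± 0.13) and Elovl7 (1.31 ± 0.08) rose. Sptlc2, a subunit of the enzyme that starts sphingolipid synthesis, measured 472, 495, 461, 511 and 595 in the knockout livers and 154, 145, 139, 164 and 144 in the wild-type livers, a rise of 3.4-fold with tight groups (1.76 ± 0.09), while its partner Sptlc1 fell by 0.32 ± 0.07 and was not called in either other scaling. Over 28 sphingolipid genes 10 rose and 6 fell (10 and 0 under control centring). Phospholipid genes split into 10 rises and 10 falls of 31 (13 and 3), and Chka, choline kinase, rose by 1.53 ± 0.33 where Pcyt2 (-1.11 ± 0.06) and Chpt1 (-1.08 ± 0.13) fell. Among NADPH-supplying enzymes 7 of 13 fell and 4 rose (4 and 4 under control centring), with malic enzyme Me1 at -2.07 ± 0.27 and Pgd at 1.72 ± 0.20. Adipocyte markers rose in 2 of 5 matched and fell in 1, with sums of 639 to 1178 in knockout and 293 to 362 in wild-type livers and Adipoq at the floor in all 10.

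The TCA cycle, which oxidizes acetyl groups in mitochondria, changed by less than 2-fold in every member. Its list had 17 of 25 lower and 3 higher, but 3 lower and 5 higher under control centring, so its direction depends on the scaling. Mpc1, the pyruvate carrier, fell by 0.82 ± 0.07 and Mdh2 rose by 0.68 ± 0.08. Glucose, lactate and water transporters had 10 falls and 4 rises of 25, and 3 falls and 5 rises under control centring. Slc2a1, the glucose carrier of most tissues other than liver, rose by 2.16 ± 0.25, and the liver carrier Slc2a2 fell by 0.53 ± 0.16, a call lost under control centring and without knockout liver 5. Carbonic anhydrases and bicarbonate carriers fell in 11 of 18 and rose in 1, and in 2 and 2 under control centring. Car5a, the mitochondrial form that feeds gluconeogenesis and the urea cycle, measured 50.8, 78.3, 61.7, 81.8 and 56.7 in the knockout livers and 587, 507, 722, 512 and 709 in the wild-type livers, one of the 2 that fell in both scalings (-3.21 ± 0.16).

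Metal-handling genes included large rises. Mt1 measured 12027, 8242, 10767, 8018 and 11785 in the knockout livers and 1718, 699, 3334, 2276 and 2637 in the wild-type livers, and its neighbour Mt2 measured 6213, 4692, 6406, 3214 and 4742 in the knockout livers and 307, 263, 1170.2, 578 and 926 in the wild-type livers. Both metallothioneins, which bind zinc and copper, were above the wild-type range in every knockout liver (2.41 ± 0.40 and 3.16 ± 0.46). The rise of Mt1 was 1.59 with the mean of its probe sets and 0.77 without the less specific designs, called in both. Slc39a4, a zinc importer known from intestine, measured 1174, 1878, 1119, 1561 and 1859 in the knockout livers and 299, 322, 276, 289 and 307 in the wild-type livers, a rise of 5.0-fold (2.31 ± 0.13), and Slc39a6 rose by 2.42 ± 0.23 on 1424674_at but not on its brightest probe set. Slc39a14, an importer raised by inflammation, was not called (-0.31 ± 0.14). Of 15 zinc genes 5 rose and 3 fell (7 and 1 under control centring). Of 21 iron and heme genes 8 rose and 6 fell (10 and 1 under control centring), with Hmox1, heme oxygenase, up by 2.09 ± 0.15, the hepcidin-pathway target Id1 by 1.68 ± 0.29 and the iron importer Slc11a2 by 1.40 ± 0.12. Erythroid markers fell in 4 of 5 matched, where 25.8% of all measured genes fell. Their sums were 211 to 303 in knockout and 392 to 611 in wild-type livers. Hba-a1 was at the floor in all 10 livers. Slc4a1 (means of 20.3 in knockout and 24.4 in wild-type livers) and Epb42 (25.8 and 30.3) were close to it. Counts of these markers under control centring are not given here. Genes of glucocorticoid availability and response had 8 rises and 6 falls of 17 (9 and 5 under control centring). Sgk1 rose by 2.47 ± 0.22, and Hsd11b1, which regenerates corticosterone, fell by 1.42 ± 0.11. Vesicle transport genes had 13 rises and 8 falls of 36 (22 and 1 under control centring), Kdelr3 rising the most (1.43 ± 0.18).

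The second knockout liver differed most from the others of its group. Of 14526 genes above the floor in all 10 livers, 59.6% had the larger SD in knockout, and the median SD of log2 values was 0.148 against 0.129. In an alternative chosen after seeing the data, without the second knockout liver, these were 48.9% and 0.125 against 0.129, and without any 1 of the other 9 livers the share was 57.1% to 67.1%. Among called genes the most variable in knockout was BC018473, at 16, 94.0, 134, 208 and 159 in the knockout livers and 16 in all 5 wild-type livers, with the first liver at the floor like the wild-type livers (2.53 ± 0.55, and 3.15 without that liver); a more specific probe set gave -0.15 and was not called. G0s2, an inhibitor of triglyceride lipase, measured 592, 114, 91.2, 68.4 and 56.6 in the knockout livers and 1294, 1171, 1441, 1807 and 695 in the wild-type livers. Its fall was led by knockout livers 2 to 5, and the first lay just under the lowest wild-type liver (-3.36 ± 0.56, and -3.94 without it). Fst measured 339, 78.8, 366, 330.5 and 641 in the knockout livers and 68.0, 48.6, 49.1, 67.1 and 39.1 in the wild-type livers, with the second knockout liver close to the wild-type range and the other 4 far above it (2.92 without the second liver against 2.45 ± 0.37 with it). Tubb2b measured 166, 17.9, 74.9, 56.7 and 101 in the knockout livers and 16 in all 5 wild-type livers, and its second knockout liver was near the floor where all wild-type livers lay (2.05 ± 0.36, and 2.52 without it). Ppp1r3g, a glycogen-targeting phosphatase subunit, measured 158, 45.3, 146, 85.2 and 451 in the knockout livers and 58.5, 30.9, 92.0, 49.8 and 30.5 in the wild-type livers and overlapped between the groups (1.46 ± 0.52, adjusted p = 0.036). Its call was lost in 8 alternatives, among them leaving out knockout liver 5 (1.02).

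Most of the large differences also differed from the genotype difference on chow. For 24.2% of all genes the difference between diets was called (limma interaction term). Of the 775 rises of at least 2-fold, 700 had such a call in the same direction, and of the 542 falls 514. That term contains the very-low-fat difference by which these genes were chosen, so the shares are a description. Psat1, Ghr, Krt8 and Cebpa differed between genotypes on chow by 0.00 ± 0.12, -0.02 ± 0.10, 0.07 ± 0.14 and -0.19 ± 0.13, none of them called. Exceptions were Hao2, whose difference between diets was not called (-2.53 ± 0.92, adjusted p = 0.065, with -1.63 ± 0.65 on chow), and Egr1 (1.90 ± 0.72, adjusted p = 0.081). Cebpd rose on both diets (1.52 ± 0.31 on chow), and its difference between diets was not called (0.27 ± 0.44, adjusted p = 0.94).

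**Figure D4:**
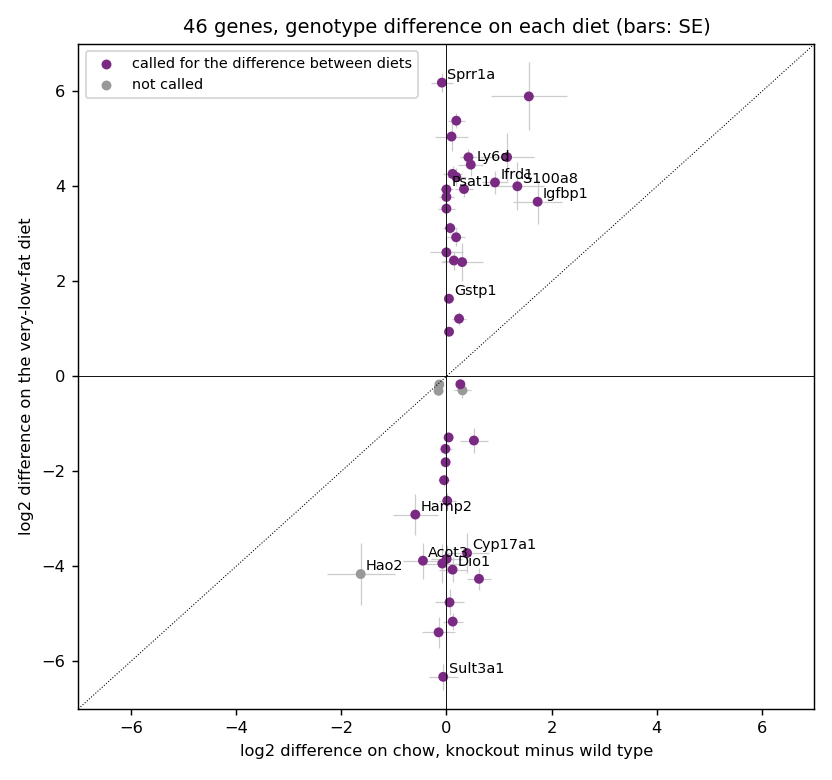
Genotype difference (knockout minus wild type, log2, with standard errors) on the very-low-fat diet (vertical) against chow (horizontal) for the 46 genes with the largest differences or an on-off pattern other than Scd1. Purple points, 42 genes, were called for the difference between diets, grey points were not, and the dotted line marks equal differences; most points lie near 0 on the horizontal axis.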

How the data were processed

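RNA of 20 single livers was hybridized to Affymetrix mouse expression arrays, 5 for each genotype and diet. Each deposited value is a probe set intensity on a linear scale. MAS5 and RMA are named in the submitters' processing notes, but not which of them made the values; versions and further steps are not given here. After 64 control probe sets were left out, each array was scaled to a common median. Intensities were then raised to a floor of 16, taken to log2 and quantile normalized over 20 arrays. Median scaling as an alternative left out the quantile step. The deposited table itself holds no log2 values.

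In R 4.3.3, limma 3.58.1 fitted 4 group means over all 20 arrays to 45037 probe sets, with 16 residual and 1.94 prior degrees of freedom. P-values were adjusted by the Benjamini-Hochberg method over all probe sets, measure the spread between individual livers, and the number of arrays limits the precision. Each probe set has 1 spread shared by the 4 groups. Groups at the floor add none to it, so standard errors and p-values there understate the spread between livers above the floor. Genes were named from the platform annotation, with 34945 probe sets naming 1 gene, 932 several and 9160 none, and symbols were updated through Entrez identifiers. Each gene was read from the probe set brightest over all arrays. Tables and figures used pandas 2.3.3 and matplotlib 3.10.9, and the fit was tested on simulated data.

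The comparison, 50 gene lists and 11 marker sets were chosen with earlier results of these data known. Named genes came from 6 rules. These took the 12 largest rises and falls, the 8 largest rises and falls in intensity and the 6 largest on-off changes each way. They also took the 4 smallest p-values of each list with members moving against it. The last 2 rules took 11 measured genes named in advance and the 6 called genes most variable in knockout. Gdf15, named in advance too, was not among the measured genes. Not every gene of these rules is described, and Srebf1 and Fgf21 are among those left out. Other genes named, and which genes have values per liver, were chosen after their values were seen. The alternatives were 2 other scalings, a floor of 32, intensity plus 16, bright probe sets only, the very-low-fat arrays alone, a replicate block, the mean of a gene's probe sets, specific probe set designs only, each liver left out and, chosen after seeing the data, the most variable probe set. Promoter windows of 12903 measured genes came from RefSeq.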

Additional observations from a re-analysis of the deposited data

Results flagged for a closer look

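The genotype difference differed between the very-low-fat diet and chow for 4401 genes by limma's interaction term, the difference on the very-low-fat diet minus that on chow. Of the 71 genes whose intensities are given liver by liver, 68 were called for it, against 24.2% of all genes. The 71 were chosen after their values were seen, and the term contains their very-low-fat difference, so the count is a description. Psat1, Chil3, Mmp12 and the Afp, Cpe, Nfe2l2 and Ddr1 probe sets named above were at or near the floor in wild-type livers on the very-low-fat diet.

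The interaction was at least 3 on the log2 scale for Afp (6.52), Cpe (4.27), Chil3 (4.15), Srxn1 (4.01), Ly6d (4.00), Anxa2 (3.99), Psat1 (3.94), Mmp12 (3.78), Atf3 (3.68), Cdkn1a (3.62), Ddr1 (3.43), Ifrd1 (3.16), Tubb6 (3.15) and Krt8 (3.05). It lay between 2 and 3 for Mt2 (2.66), S100a8 (2.65), Ccl6 (2.58), Krt18 (2.53), Myc (2.44), Fst (2.44), Nfe2l2 (2.29), Slc39a4 (2.26), Ugdh (2.17), Cdh1 (2.13), S100a9 (2.11), Mt1 (2.11), Fos (2.07), Tubb2b (2.05) and Lgmn (2.00), and was below 2 for Igfbp1 (1.94), Slc7a11 (1.89), Cd44 (1.85), Cxcl2 (1.84), Slc3a2 (1.82), Ctss (1.81), Tlr13 (1.65), Psmd8 (1.62), Sptlc2 (1.62), Gstp1 (1.59), Nop58 (1.59), Scd2 (1.59), Sqstm1 (1.58) and Ncl (1.38). In the other direction it was -2 or lower for Dio1 (-4.19), Cyp17a1 (-4.11), Acot3 (-3.43), Ces1f (-3.39), G0s2 (-3.17), Car5a (-3.00), Ugt3a2 (-2.72), Hsd17b6 (-2.64), Ghr (-2.39), Inhbe (-2.36), Hamp2 (-2.32), Slco1b2 (-2.24) and Igfals (-2.08). It was smaller for Fads2 (-1.94), Fads1 (-1.93), Cebpa (-1.83), C8g (-1.77), Glul (-1.74), Nr1i3 (-1.71), Klkb1 (-1.70), Ppara (-1.67), Slc38a3 (-1.66), Igf1 (-1.40), Mlxipl (-1.32) and Rdx (-0.89).

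In 10 of 134 groups of 5 livers, 1 liver stood apart from the other 4 by Dixon's 95% criterion, a gap of more than 0.71 of the group's range. Chance alone gives about 1 in 20 groups where values are independent, free of a floor and chosen unseen. Here the genes were chosen after their values were seen, G0s2 and Ppp1r3g for their large spread in knockout livers. For Afp the other 4 wild-type livers were at the floor, so any 1 value above it stands apart. The count is thus a description. The intensities that stood apart were those of Ly6d in wild-type liver 4 (125.0), Krt18 in wild-type liver 2 (1619), Afp in wild-type liver 4 (28.6), Cxcl2 in knockout liver 3 (113.0), S100a8 in knockout liver 1 (2934), S100a9 in knockout liver 1 (1555), Ppara in wild-type liver 5 (2749), Cebpa in knockout liver 5 (510.0), G0s2 in knockout liver 1 (592.0) and Ppp1r3g in knockout liver 5 (451.0). Knockout liver 1 was the high one for S100a8, S100a9 and G0s2, and wild-type liver 4 for Ly6d and Afp.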

How the results depend on the processing

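Against 4183 falls, control centring called 961; it called 1322 rises of at least 2-fold against 775, and 333 such falls against 542. Without 1 liver the rises were 3266 to 3533, the falls 3481 to 4476, the rises of at least 2-fold 746 to 820, the falls of at least 2-fold 532 to 570 and the differences between diets 4131 to 4509. The animals' numbers did not pair them: same-numbered livers of the 2 genotypes deviated with correlations of -0.245 to 0.027. The replicate block gave 3422 rises and 3979 falls.

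List medians changed sign for autophagy (0.11 under median scaling, 0.26 under control centring, 0.058 with the mean of a gene's probe sets, 0.26 with the most variable one), eicosanoid enzymes (0.028 under median scaling, 0.18 under control centring), and, under control centring, chemokine receptors (0.048), serpins (0.091), hepatokines (0.11), the EGF family (0.078) and glucose, lactate and water transport (0.028). The EGF family also reached 0.013 with the mean of probe sets, amino acid transporters -0.0082 with bright probe sets only, and the growth hormone axis 0.088 with specific designs only. Medians nearer 0 than their spread between livers also changed sign, over all alternatives, for cytosolic chaperones (-0.013 to 0.39), sphingolipid enzymes (-0.11 to 0.24), dual-specificity phosphatases (-0.095 to 0.24), zinc genes (-0.020 to 0.68), phospholipid genes (-0.18 to 0.31), tight junctions (-0.085 to 0.24) and the TNF receptor family (-0.029 to 0.24).

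Of 271 genes named, 214 kept their direction and call in all alternatives, 36 lost a call in at least 1, 10 gained one and 21 changed sign in at least 1. Of 245 called ones, 32 came at least 1.5-fold nearer 0 with the mean of probe sets and 31 of these stayed called; a floor of 32 gave 19 and 18. Under control centring Afp (0.066), Cps1 (0.10), Egr3 (0.0070), Epcam (0.095), Foxa3 (0.31), Igf2 (0.074), Jup (0.059), Nfe2l2 (0.057), Phgdh (0.29), Slc39a14 (0.011), Slc39a6 (0.20) and Sptlc1 (0.029) turned positive, none called, as did Foxa3 (0.16), Phgdh (0.14) and Slc39a6 (0.051) under median scaling. With bright probe sets only, Afp became 4.24 and Cpe 4.27. With the mean of probe sets Afp became 3.14, Cpe 1.92, Ddr1 0.66, Emp1 1.11, Hspa4 -0.33, Nfe2l2 1.00, Phgdh 1.17, Rpl22 -0.46 and Slc39a6 0.60. With the most variable one they became 6.52, 4.27, 3.69, 2.49, -1.34, 2.29, 2.23, -1.63 and 2.42 for Afp, Cpe, Ddr1, Emp1, Hspa4, Nfe2l2, Phgdh, Rpl22 and Slc39a6. With specific designs only, Aars became -0.039, BC018473 -0.15, Cpe 4.27 and Dlk1 0.038. Without 1 liver, uncalled values near 0 changed sign for Krt19 (-0.019 to 0.064), Phgdh (-0.14 to 0.0075) and Slc39a6 (-0.037 to 0.0043). In each probe set alternative the cause is its construction, another probe set being read; for the scalings and left-out livers the cause was not tested.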

Other observations

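Markers of other cells moved unevenly. Of 11 markers of sinusoidal endothelium 1 rose and 5 fell: Lyve1, the hyaluronan receptor of these cells and of some macrophages, rose by 2.45, while Oit3 (-0.70), Kdr (-0.69) and Clec4g (-0.53) fell. Their summed intensity was 3139 to 4439 in knockout and 3403 to 3966 in wild-type livers. Of all measured genes 21.5% rose and 25.8% fell. Of 6 matched markers of exocrine pancreas 1 fell, Cela1 (-0.86), and of 7 matched markers of muscle Acta1 rose (0.20) and Ckm fell (-0.43), with Myh4 and Tnnt3 at the floor in all 10 livers. Among adipocyte markers the lipid-binding Fabp4 (2.06) and the lipid droplet gene Cidec (1.85) rose and Retn fell (-0.34). Under control centring none of these falls was called and Acta1 lost its call, Cela1 and Retn also lost theirs without any 1 of several livers, and with specific probe set designs only Fabp4 gave 0.22 and was not called. These genes were named after their values were seen.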
